A study of Homo sapiens with 6 samples.

Results

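The genes described here encode the receptors of the insulin-like growth factors (IGFs) and the proteins that bind IGFs outside the cell. The list held 9 genes, chosen by gene name with earlier results of these data known. They were the receptor genes IGF1R, INSR and IGF2R and the binding protein genes IGFBP2, IGFBP3, IGFBP4, IGFBP5, IGFBP6 and IGFBP7. Of these, 8 had a probe set of their own among the 18404 genes tested. IGFBP6 was annotated only on a probe set that also lists C12orf57, so no level is given for it. RNA was measured on whole-transcript arrays in 2 human lines of small cell lung cancer, called H69 and H69M, using 3 arrays per line. H69 is a neuroendocrine line that grows as floating clusters. Each group is a single cultured line, no treatment is named in the labels, and they do not say how H69M was obtained.

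IGF1 and IGF2 are small secreted hormones. They signal through the tyrosine kinase IGF1R and, for IGF2 and insulin, through its close relative INSR, which recruit the IRS adaptors and switch on PI3K and AKT. IGF2R has no kinase. It takes up IGF2 for degradation and carries mannose 6-phosphate-tagged enzymes to the lysosome. The IGFBPs hold IGFs in the medium or matrix, which can block or prolong signalling, and proteases release the hormone again. Small cell lung cancer has long been studied as a tumour that can make and respond to IGFs.

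Of the measured genes, IGFBP7, IGFBP4 and IGFBP3 were 21.9, 5.62 and 4.56-fold higher in H69M than in H69. IGFBP2 was slightly lower, and IGFBP5 and the 3 receptor genes did not pass the test. Thus 3 of 8 genes rose and 1 fell at an adjusted p below 0.05 (limma, Benjamini-Hochberg over all genes). Of all genes 44.2% passed, 21.0% as rises and 23.2% as falls. The 3 that rose were at least 2-fold higher, as were 5.56% of all genes, and 0 of the 8 were at least 2-fold lower, as were 2.72% of all genes. The median log2 difference of the 8 genes was 0.051, against -0.041 for all genes.

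To show what lies ahead of these genes, the 250 bases before the RefSeq start (GRCh38.p14) are printed for 2 binding protein genes that rose, IGFBP3 (chr7:45921273-45921522, minus strand) and IGFBP4 (chr17:40443200-40443449, plus strand), and for IGFBP5 (chr2:216695550-216695799, minus strand), which did not pass the test. Each reads 5′ to 3′ along the gene. Capitals mark exact matches to the GC box (GGGCGG or CCGCCC) and the TATA box (TATAAA or TTTATA). Other A and T stretches, such as tatata in IGFBP3 and tatttaaaa in IGFBP5, were not searched for. They were not counted as a TATA box and stay in lower case.
IGFBP3: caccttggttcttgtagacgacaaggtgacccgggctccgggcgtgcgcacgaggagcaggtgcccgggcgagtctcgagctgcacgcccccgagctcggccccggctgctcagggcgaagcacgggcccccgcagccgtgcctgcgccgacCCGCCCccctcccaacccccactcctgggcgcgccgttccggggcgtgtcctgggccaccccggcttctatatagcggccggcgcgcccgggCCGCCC
IGFBP4: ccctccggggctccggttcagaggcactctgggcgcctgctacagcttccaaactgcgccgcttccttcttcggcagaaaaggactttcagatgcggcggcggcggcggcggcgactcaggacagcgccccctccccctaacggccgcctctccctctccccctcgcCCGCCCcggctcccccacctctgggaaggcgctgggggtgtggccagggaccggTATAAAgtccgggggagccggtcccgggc
IGFBP5: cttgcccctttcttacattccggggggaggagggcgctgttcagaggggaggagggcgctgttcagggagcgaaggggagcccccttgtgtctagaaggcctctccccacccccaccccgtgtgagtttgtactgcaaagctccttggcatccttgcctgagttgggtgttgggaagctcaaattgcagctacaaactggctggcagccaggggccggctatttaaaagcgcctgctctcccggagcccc
The IGFBP3 stretch held 2 GC boxes and 32 CpG dinucleotides, and the IGFBP4 stretch 1 GC box, 24 CpG dinucleotides and 1 TATA box. The IGFBP5 stretch held 0 GC boxes and 8 CpG dinucleotides. These counts did not follow the expression difference: the windows of the receptor genes, which did not pass the test, held 48 CpG dinucleotides and 2 GC boxes (IGF1R), 33 and 6 (IGF2R) and 28 and 4 (INSR). No window is given for IGFBP7. Over 35093 human promoter windows of the same length the median was 11 CpG dinucleotides, 42.6% held a GC box and 10.7% a TATA box. Other motifs were searched on both strands with overlapping matches counted. The ZEB E-box (CAGGTG or CACCTG, in 17.5% of windows) was found in IGFBP3, and the TEAD letters (GGAATG or CATTCC, in 11.9%) in IGFBP5. The AP-1 letters TGANTCA (in 6.57%) were in none of the 3. Among windows not printed, the ZEB E-box was also in those of IGF2R, IGFBP6 and 1 IGFBP2 start. The TEAD letters were also in that of IGFBP6. These matches describe letters in the windows, and the motifs were picked with the expression values known.

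The receptor genes had nearly the same level in both lines. IGF1R (probe set 7986359), the main signalling receptor, read 9.12, 9.10 and 8.92 on the log2 scale in H69 and 9.06, 9.15 and 9.19 in H69M. The arrays of the lines overlapped. The difference was 0.085 ± 0.074 (log2, SE), with a 95% confidence interval from -0.087 to 0.26 (limma adjusted p = 0.394). A second IGF1R probe set differed by 0.020 ± 0.070 (log2, SE; limma adjusted p = 0.847).

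IGF2R, the clearance and sorting receptor (probe set 8123181), read 9.83, 9.83 and 9.73 in H69 and 9.78, 9.81 and 9.85 in H69M (log2). Again the lines overlapped. The interval of the difference was the narrowest of the 8 genes, from -0.12 to 0.15, around 0.017 (limma adjusted p = 0.847), and the sign of this near-zero value turned in 3 of its alternatives.

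INSR, the insulin receptor gene (probe set 8033362), read 5.20, 5.18 and 5.28 in H69 and 5.11, 5.09 and 4.99 in H69M (log2). All H69M arrays lay below all H69 arrays, but the gap was small. The difference of -0.16 ± 0.062 (log2, SE; 95% confidence interval -0.30 to -0.016) had a limma adjusted p = 0.0712. With the arrays quantile normalized again it was -0.22 with a limma adjusted p = 0.0203. Its mean level was under the 25th percentile of all genes (5.58), a range where RMA values compress differences.

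Within an array, IGF1R minus INSR had a mean of 3.83 ± 0.16 over the H69 arrays and 4.07 ± 0.13 over those of H69M (log2, SD, n = 3). The shift was 0.24 (two-sided exact permutation p = 0.10, the smallest that 3 against 3 arrays allow; 0.30 adjusted over 3 pairs). IGF1R minus IGF2R shifted by 0.069 (exact permutation p = 0.20, adjusted 0.30). Only the shift can be read, since levels of different probe sets are not comparable, and this permutation test cannot call a shift between 3 and 3 arrays.

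**Figure D1:**
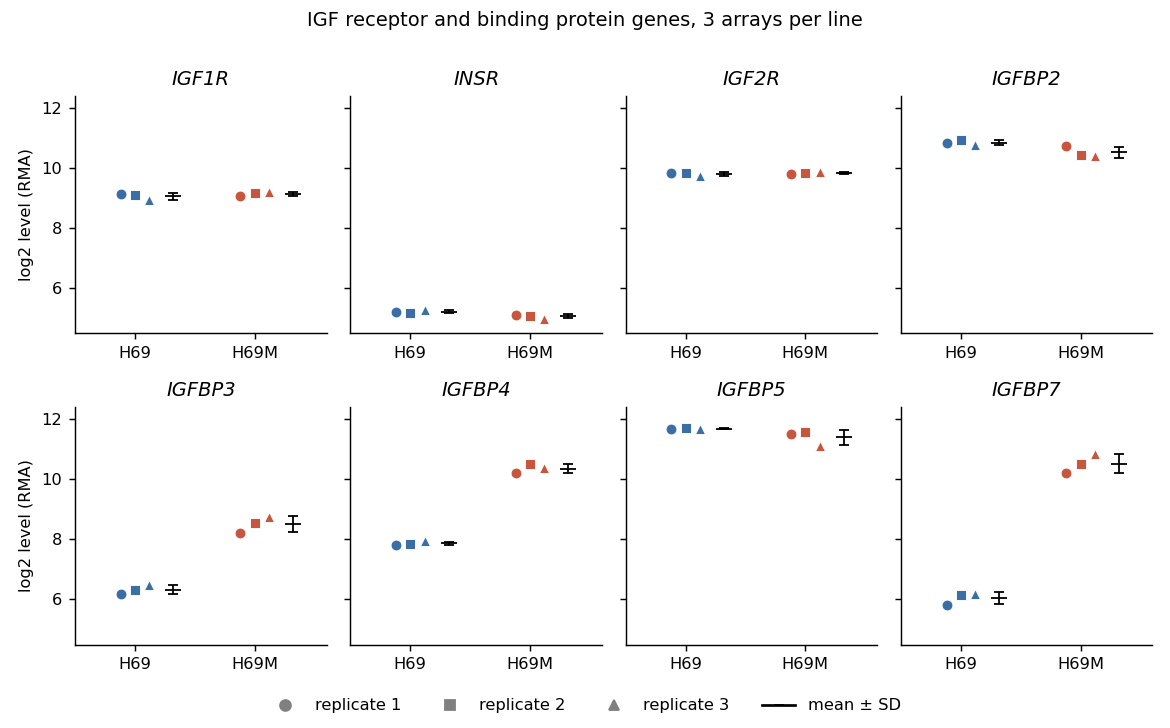
Log2 level (RMA) of each of the 8 measured genes on each array, with circles, squares and triangles for replicates 1, 2 and 3, and the mean ± SD of each line in black. IGFBP3, IGFBP4 and IGFBP7 sit far apart between H69 (blue) and H69M (red), while the points of IGF1R and IGF2R overlap.

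IGFBP7 had the largest difference of the 8 genes. It encodes a secreted matrix-associated protein that binds IGFs more weakly than its relatives. Probe set 8100541 read 5.82, 6.14 and 6.18 in H69 and 10.19, 10.49 and 10.82 in H69M (log2). No array of either line came near those of the other. IGFBP7 rose by 4.45 ± 0.16 (log2, SE; limma adjusted p = 6.65e-07), and 55 of the 18404 genes had a larger rise. Without any 1 array the rise stayed between 4.29 and 4.61.

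IGFBP4, which mostly restrains IGF action until it is cut by the protease PAPPA, rose next most. It read 7.80, 7.84 and 7.93 in H69 and 10.19, 10.49 and 10.37 in H69M (log2, probe set 8007100). Both groups were tight and far apart. The rise was 2.49 ± 0.085 (log2, SE; limma adjusted p = 4.63e-07).

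IGFBP3, the main IGF carrier in blood, read 6.16, 6.32 and 6.47 in H69 and 8.22, 8.54 and 8.75 in H69M (log2, probe set 8139488). Every H69M array was above every H69 array. IGFBP3 rose by 2.19 ± 0.14 (log2, SE; limma adjusted p = 9.10e-06). All 3 rises passed under every alternative tried.

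IGFBP2, which carries an integrin-binding motif, went the other way by a small amount. It read 10.84, 10.92 and 10.77 in H69 and 10.71, 10.44 and 10.38 in H69M (log2, probe set 8048205). The lines did not overlap, though H69M replicate 1 came close to the lowest H69 array. The difference was -0.33 ± 0.096 (log2, SE; limma adjusted p = 0.0236), or 1.26-fold lower in H69M. This call was borderline. It was lost without H69 replicate 1 (limma adjusted p = 0.0618) or 2 (0.0804), or without H69M replicate 2 (0.079) or 3 (0.0699). With any 1 array left out the difference itself stayed between -0.43 and -0.27 (log2). The limma adjusted p over all alternatives ran from 0.00263 to 0.0804.

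IGFBP5, a binding protein that adheres to matrix, read 11.67, 11.69 and 11.65 in H69 and 11.49, 11.58 and 11.10 in H69M (log2, probe set 8058857). H69M replicate 3 stood below the rest. The difference of -0.28 ± 0.12 (log2, SE; 95% confidence interval -0.56 to -0.0071) had a limma adjusted p = 0.0908. It was -0.14 without H69M replicate 3 (limma adjusted p = 0.153) and -0.38 without H69M replicate 2 (0.0418), and eBayes with trend gave 0.0476.

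In 6 of the 8 genes the H69 and H69M arrays were fully separated, against 55.8% of all genes. For all 4 genes that passed, H69M replicate 1 was the H69M array nearest to H69. The same array was the nearest for 55.0% of all genes that passed.

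**Figure D2:**
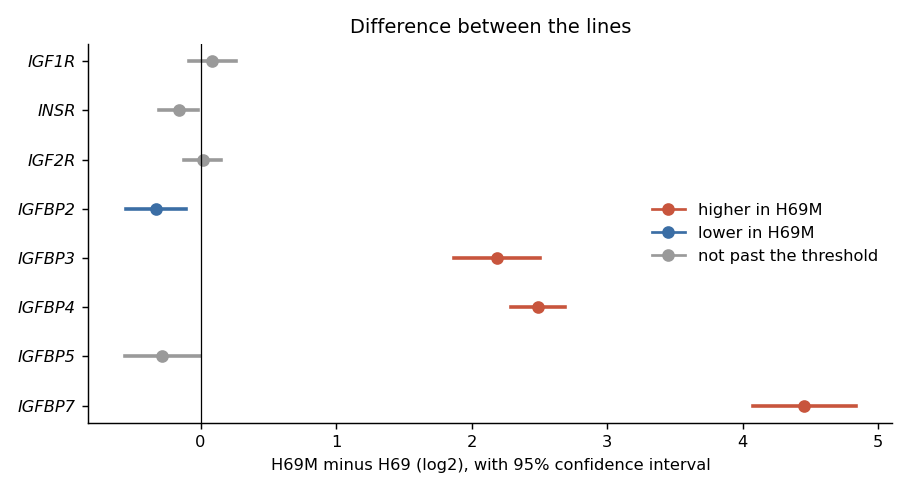
H69M minus H69 on the log2 scale for each gene, with the 95% confidence interval of the limma fit as a line. IGFBP3 (2.19), IGFBP4 (2.49) and IGFBP7 (4.45) lie to the right of 0 and IGFBP2 (-0.33) to the left, while the grey genes did not pass the threshold.

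Both lines were checked against the labelled cell type and against cells that make IGFBPs. Of 11 measured neuroendocrine markers, 9 fell in H69M and 0 rose, while 23.2% of all genes fell and 21.0% rose. The median over all 11 was -0.75 in log2. Yet 0 of them were under the 25th percentile of gene level in either line. Among 14 fibroblast markers, 11 rose and 0 fell. Their summed linear level was 1005 to 1024 on the H69 arrays and 9559 to 12539 on the H69M arrays. COL1A1 rose by 4.83 and LUM by 6.78 in log2, and the markers not past the threshold were TCF21 (0.29), MEOX2 (-0.21) and DPT (0.0084). The part of these markers in the IGFBP result was not tested. In bulk RNA, more cells of a type and more RNA per cell cannot be told apart. Of the other marker lists, 5 of 10 endothelial genes rose and 1 fell, and 1 of 11 leukocyte genes rose and 3 fell. For 8 airway and alveolar genes it was 0 and 2. Many of these genes were dim. Under the 25th percentile were 9 endothelial genes in H69 and 6 in H69M, and 8 and 7 leukocyte genes. For airway and alveolar genes these counts were 3 and 4, and for fibroblast markers 8 and 3. Among the endothelial genes TEK (3.28), FLT1 (2.96), ESAM (0.55), EMCN (0.44) and KDR (0.39) rose and CLDN5 (-0.53) fell. PECAM1 (-0.14), CDH5 (-0.0090), VWF (-0.090) and TIE1 (0.17) were not past the threshold. In H69M the arrays read 8.44, 8.58 and 6.64 for TEK and 7.77, 8.19 and 5.82 for FLT1, with replicate 3 the lowest.

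The ligand side could be read only in part. IGF1 was dim in both lines, at 5.03, 4.93 and 4.85 in H69 and 5.57, 5.83 and 4.58 in H69M (log2). H69M replicate 3 was below all the H69 arrays and the other H69M arrays were above them. The difference of 0.38 did not pass (limma adjusted p = 0.31), and without H69M replicate 3 it was 0.76 (0.000773). IGF2 and INS share a probe set, so neither has a level of its own here.

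Of 4 further genes of the insulin receptor and binding protein families, 0 rose and 2 fell (median -0.26), against 21.0% and 23.2% of all genes. The orphan receptor gene INSRR fell by 0.54 and IGFBPL1, a brain-expressed relative of the IGFBPs, by 0.36 in log2 (limma adjusted p = 0.0182 and 0.026). Both calls were borderline and were lost for several choices of the array left out. With any 1 array left out INSRR stayed between -0.68 and -0.42 and IGFBPL1 between -0.48 and -0.29 (log2). With H69 replicate 1 or 3 left out the limma adjusted p of INSRR was 0.0567 or 0.0575, and with H69M replicate 2 or 3 left out it was 0.0634 or 0.0539. For IGFBPL1 it was 0.0807 or 0.083 when H69 replicate 1 or 2 was dropped, 0.0875 or 0.0749 when H69M replicate 2 or 3 was, and 0.0538 with all probe sets tested. IGFBP1 (-0.034) and IGFALS (-0.15), the subunit that joins IGF and IGFBP3 in blood, did not pass.

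Among 12 genes for proteins that share the IGFBP domain, 6 were higher in H69M and 2 lower (median 0.20), or 1 lower without H69 replicate 1. The shares over all genes were 21.0% higher and 23.2% lower. CCN2 rose by 5.86, CRIM1 by 4.42 and CCN1 by 3.61 in log2. CCN1 and CCN2 are matricellular proteins, and CRIM1 is a membrane protein that binds BMPs. HTRA1, a secreted serine protease, rose by 1.70. CCN3, another matricellular protein of the family, fell by 1.86, from 10.18, 10.17 and 9.99 to 8.45, 8.24 and 8.08. Every H69M array was below every H69 array for CCN3, the opposite of CCN1 and CCN2.

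Of 11 genes for IGFBP-cutting proteases and their inhibitors, 6 rose and 4 fell (median 0.27), against 21.0% and 23.2% of all genes. Without H69 replicate 2, H69M replicate 2 or H69M replicate 3, 2 fell. The plasminogen activator genes PLAT (3.03) and PLAU (2.36), the metalloproteinase gene ADAM12 (2.05) and the lysosomal protease gene CTSD (0.61) rose, and ADAM28 fell by 1.94. PAPPA, the protease that cuts IGFBP4, read 6.18, 6.15 and 6.11 in H69 and 6.47, 6.44 and 6.32 in H69M, a rise of 0.27 ± 0.063 (log2, SE; limma adjusted p = 0.00999). Stanniocalcins inhibit PAPPA. STC2 fell by 0.81 (limma adjusted p = 0.000457). STC1 fell by 0.23 (limma adjusted p = 0.0187), a call lost without H69 replicate 1 (0.0617) or 2 (0.0558) or without H69M replicate 2 (0.0665) or 3 (0.0529).

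Just below the receptors, 9 of 23 adaptor and brake genes rose and 2 fell (median 0.048), against 21.0% and 23.2% of all genes. ENPP1, a membrane enzyme that can inhibit the insulin receptor, rose most, by 4.25 ± 0.18 (log2, SE; limma adjusted p = 1.15e-06). Its arrays read 5.14, 5.49 and 5.81 in H69 and 9.48, 9.77 and 9.95 in H69M. The adaptor genes SHC4 (2.15), SHC1 (2.03) and IRS1 (1.43) rose. IRS1, which couples IGF1R to PI3K, read 6.69, 6.79 and 6.55 in H69 and 7.94, 8.14 and 8.23 in H69M. IRS2 (-0.020) and GRB10 (-0.090) did not pass.

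Farther down, 5 of 29 genes of the PI3K, AKT and mTOR chain rose and 8 fell (median -0.0090). Of all genes 21.0% rose and 23.2% fell. Without H69 replicate 1 or without H69 replicate 2, 5 genes of the chain fell. INPP4B, a lipid phosphatase that acts against AKT signalling, rose by 2.76, from 5.12, 4.997 and 4.98 to 7.69, 7.86 and 7.82. DEPTOR, an mTOR-binding inhibitor, fell by 1.64, and PI3K regulatory subunit genes fell: PIK3R3 by 0.90 and PIK3R1 by 0.67. FOXO1, a transcription factor that AKT holds out of the nucleus, rose by 0.40 (limma adjusted p = 0.00452). Of 17 genes known as FOXO targets, 4 rose and 6 fell (median -0.15), against the same shares of all genes. BCL6 rose by 2.31, while the sestrin genes SESN3 (-2.09) and SESN1 (-1.72) and the death-promoting gene BCL2L11 (-1.38) fell.

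The IGF2 mRNA-binding proteins, which hold and stabilise IGF2 and other transcripts, were split. IGF2BP2 read 5.44, 5.85 and 5.67 in H69 and 9.12, 9.36 and 9.56 in H69M, a rise of 3.69 ± 0.14 (log2, SE; limma adjusted p = 6.70e-07). IGF2BP1 read 5.50, 5.53 and 5.15 in H69 and 8.91, 8.61 and 9.10 in H69M, a rise of 3.48 ± 0.14 (log2, SE; limma adjusted p = 1.08e-06). IGF2BP3 was at 9.60, 9.69 and 9.64 in H69 and 9.73, 9.69 and 9.70 in H69M, and the 0.067 between them was not past the threshold (limma adjusted p = 0.365). LIN28B, an RNA-binding protein that blocks let-7, fell by 0.39. In this list of 6 measured genes, 2 rose and 1 fell (median 0.10), against 21.0% and 23.2% of all genes.

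IGF2R serves a second system, the delivery of lysosomal enzymes. Of 15 genes for tagging, sorting and retrieving them, 5 rose and 5 fell (median 0.048), against 21.0% and 23.2% of all genes. The falls were small and their count was not stable: it was 2 or 1 without H69 replicate 1 or 2, 3 without H69M replicate 1, 1 without H69M replicate 2 or 3, and 1 with arrays centred on their medians or all probe sets tested, while 4 to 5 genes rose in every alternative. M6PR, the other mannose 6-phosphate receptor gene, rose by 0.50 ± 0.085 (log2, SE; limma adjusted p = 0.00199), from 9.89, 9.81 and 9.72 to 10.16, 10.32 and 10.44. NAGPA, the enzyme that uncovers the tag, rose by 0.44, AP1G1, an adaptor subunit, by 0.35, and AP1B1, another, fell by 0.39. Of 16 tagged hydrolase genes, 11 rose and 1 fell (median 0.42), against the same shares of all genes. The cathepsin genes CTSB (2.42) and CTSL (1.79) and the beta-galactosidase gene GLB1 (0.90) rose, and GUSB, beta-glucuronidase, had -0.53 as the fall.

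**Figure D3:**
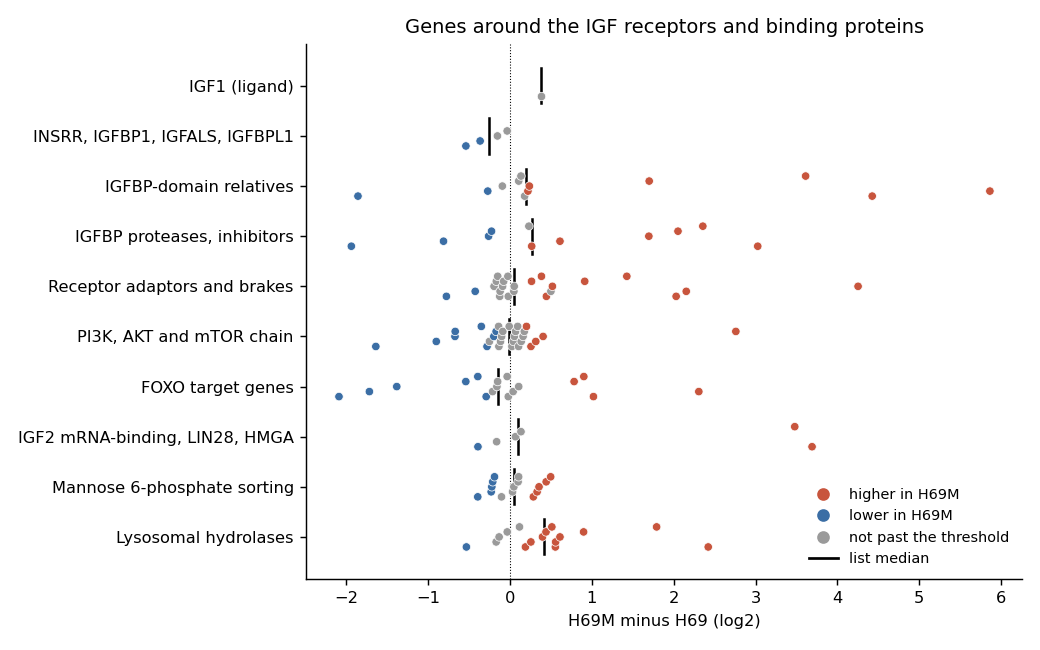
Each point is a gene of the 10 lists around the IGF receptors and binding proteins, placed by H69M minus H69 (log2), with the list median as a black bar. Medians stay between -0.26 and 0.42, and single genes reach 5.86 (CCN2) and -2.09 (SESN3).

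The genes on each side in the RefSeq order (GRCh38.p14, used for order only) were compared with the members, taking 5 measured neighbours on each side. The neighbour counts stand beside 21.0% rises and 23.2% falls over all genes. Around IGFBP4, 0 of 10 neighbours rose and 3 fell. Near IGFBP7 only REST, which encodes a repressor of neuronal genes, rose (3.07), 3 genes away, and ADGRL3 fell by 0.35. IGFBP3 lies beside IGFBP1, which did not pass, and ADCY1, an adenylyl cyclase gene 2 genes away, fell by 2.84. TNS3 on its other side rose by 0.40 and PKD1L1-AS1 by 1.02. IGFBP2 and IGFBP5 are direct neighbours, and IGFBP2 minus IGFBP5 shifted by -0.049 between the lines (two-sided exact permutation p = 0.90, adjusted 0.90). TNS1, a focal adhesion gene 2 genes beyond IGFBP5, rose by 1.41. Around the receptor genes, 1 neighbour rose and 4 fell for IGF1R, 2 and 1 for INSR, and 0 and 3 for IGF2R.

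**Figure D4:**
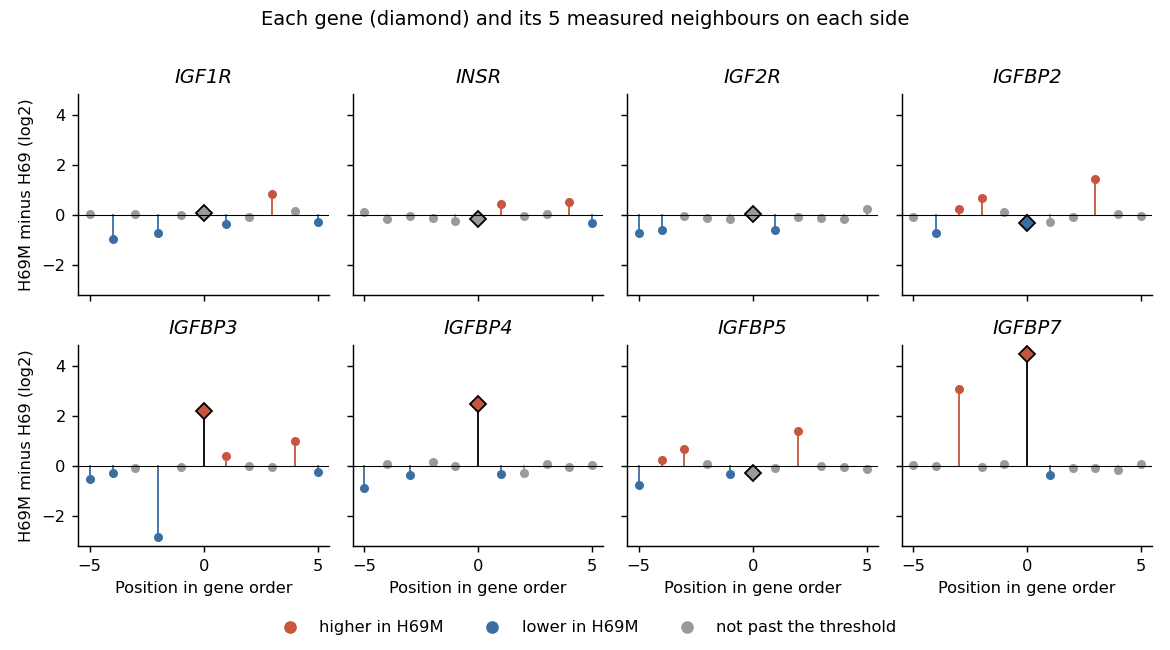
H69M minus H69 (log2) for each gene (diamond, position 0) and its 5 nearest measured genes on each side in gene order. IGFBP4 (2.49) stands alone among neighbours between -0.86 and 0.17, IGFBP7 (4.45) shares its stretch with REST (3.07), and ADCY1 (-2.84) lies below 0 near IGFBP3.

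Likeness was measured over the 6 arrays as the root mean square difference of log2 values centred per gene, which also takes in the size of a difference. Closest to IGFBP7 were IQGAP2 (0.075), PTPN14 (0.13) and THBS1 (0.14), which rose by 4.45, 4.28 and 4.54. Closest to IGFBP4 were IFITM1 (0.069), HEATR5A (0.069) and DKK3 (0.075), and closest to IGFBP3 were SLC44A2 (0.099), CPED1 (0.11) and CPT1A (0.11). For IGFBP2 they were PRRC2B (0.025), PWWP2A (0.028) and AQP3 (0.031), and for IGFBP5 ID2 (0.039), CAPN6 (0.041) and SMIM5 (0.042). The genes nearest to IGF1R were VPS37D (0.012), TMEM203 (0.013) and DEFB135 (0.017), to INSR ZFYVE19 (0.018), KLK9 (0.019) and LINC00221 (0.022), and to IGF2R SPIN1 (0.0100), SELENOS (0.014) and DDX24 (0.015). Many genes share such profiles when only 2 lines are compared.

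**Figure D5:**
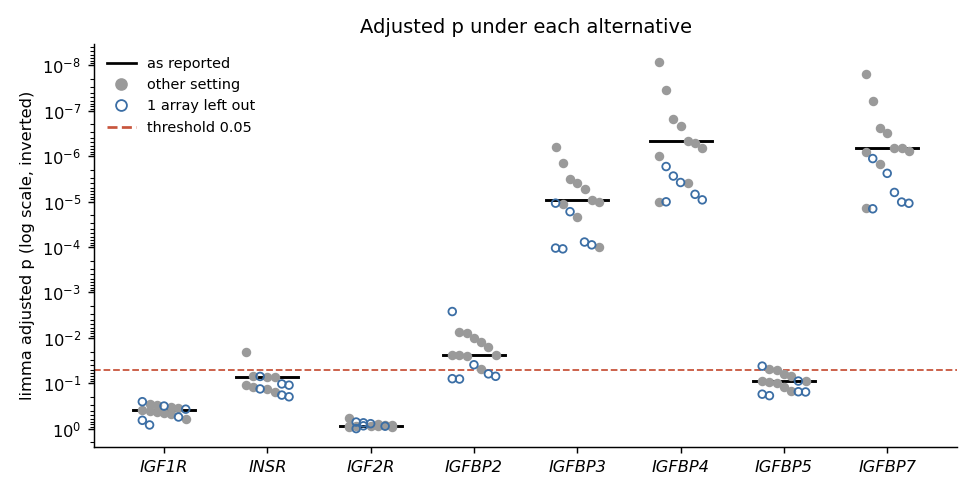
Limma adjusted p (inverted log axis) of each gene as reported (black bar), under other settings (grey) and with 1 array left out (open circles), against the threshold of 0.05 (dashed). All points of IGFBP3, IGFBP4 and IGFBP7 lie above the line, those of IGF1R and IGF2R below it, and IGFBP2, IGFBP5 and INSR have points on both sides.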

How the data were processed

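Total RNA of 2 lines, 3 arrays each, was labelled with biotin and hybridised to Affymetrix whole-transcript arrays, per the labels' protocols. The authors deposited 1 log2 value for each probe set and array. RMA and limma are named in the submitters' processing notes, with no version. Which program ran RMA, and which genome build was used, is not given in the sources used here. RMA normalizes arrays to each other and gives no detection call.

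Of 32321 probe sets, 19158 had 1 symbol in the platform annotation, 1388 had several and 11775 were not listed; 19128 matched the RefSeq table by Entrez ID. For genes with several probe sets, that with the highest mean was used (18404 genes). Lines were compared with limma 3.58.1 in R 4.3.3 (lmFit, eBayes without trend, two-sided, group only), with Benjamini-Hochberg adjustment over all genes and a threshold of 0.05. Lists were described by counts and medians, with no set test. Python 3.11.15, numpy 2.4.6, pandas 2.3.3 and matplotlib 3.10.9 did the rest. The code was tested on simulated data. Array medians were 6.43 to 6.48, arrays correlated at 0.995 to 0.998 within a line and 0.938 to 0.950 between lines, and the median SE was 0.075. The labels do not say that replicates were separate cultures, so the p-values reflect only how these arrays vary, which may be technical, and their number limits precision.

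Genes named were the measured members, up to 4 genes per list with the largest changes past the threshold, a fixed set of pathway genes, the 3 genes most like each member and neighbours that changed at least 2-fold; other genes were named after their values were seen. The members and lists were chosen with earlier results of these data known. Alternatives tried were a replicate block, median-centred arrays, renewed quantile normalization, filters at the 25th percentile and at the median, eBayes with trend, robust eBayes, array weights, averaged probe sets per gene, all probe sets tested, and each array left out.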

Additional observations from a re-analysis of the deposited data

Results flagged for a closer look

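The probe set annotated to both IGFBP6 and C12orf57 was outside the comparison and gave a signal in H69M above that in H69. It read 6.995, 6.79 and 6.58 in H69 and 8.46, 8.91 and 8.53 in H69M (log2), a difference of 1.85 ± 0.15 (log2, SE; limma adjusted p over all probe sets = 0.000233). The lines did not overlap, and the signal cannot be assigned to either gene.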

How the results depend on the processing

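Over all genes, leaving out 1 array gave 3318 to 3628 higher and 3521 to 4450 lower genes, against 3866 and 4274. IGFBP3, IGFBP4 and IGFBP7 kept their direction and their side of the threshold in all alternatives; with 1 array left out they lay between 2.06 and 2.33, 2.42 and 2.57, and 4.29 and 4.61. IGFBP2 lay between -0.43 and -0.27 and lost its call in 4 of the 6, IGFBP5 between -0.38 and -0.14 (a call in 1 of the 6), IGF1R between 0.023 and 0.12, INSR between -0.18 and -0.12, and IGF2R between -0.017 and 0.035. IGFBP5 also passed with eBayes trend (-0.28, limma adjusted p = 0.0476). With quantile normalization applied again, INSR was -0.22, IGF2R -0.0062, SELENOS -0.031 and DDX24 -0.030. IRS2 was 0.0095 with arrays centred on their medians, and with array weights SPIN1 was -0.0031 and SELENOS -0.0037. With 1 array left out, near-zero values that changed sign ran from -0.16 to 0.049 for IGFBP1, -0.054 to 0.029 for IRS2, -0.027 to 0.027 for SPIN1, -0.034 to 0.031 for SELENOS and -0.017 to 0.044 for DDX24. The cause of these moves was not tested. In the lists, 33 of 320 alternative counts differed from the reported count by more than 1.5 times: falling genes in mannose 6-phosphate sorting went from 5 to as few as 1 (2 with the replicate block), in the PI3K chain from 8 to 5, in the proteases from 4 to 2, in the IGFBP-domain genes from 2 to 1, among the adaptors from 2 to 4, among the hydrolases from 1 to 3, in the IGF2 mRNA-binding list from 1 to 0 or 2 and in the 4 further family genes from 2 to 0 or 3. Among rising genes, the IGF ligand count went from 0 to 1 and the IGF2 mRNA-binding count from 2 to 1. INSR and IGF1 drop out under both filters on low level. Same-numbered arrays of the lines did not deviate together (r = 0.021, 0.007 and 0.01). This cannot settle whether the arrays were handled in pairs. With the replicate block 3617 genes were higher and 4021 lower, and no call of the 8 genes changed (IGFBP2 limma adjusted p = 0.0246, IGFBP5 0.0636). Dim genes such as INSR and IGF1 are limited by signal over background, which RMA values do not report.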

Other observations

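The probe set annotated to INS, IGF2 and their read-through transcript INS-IGF2 read 7.504, 7.51 and 7.38 in H69 and 6.83, 6.71 and 6.80 in H69M (log2), a difference of -0.69 ± 0.068 (log2, SE; limma adjusted p over all probe sets = 0.000513). All H69M arrays lay below all H69 arrays, and the value cannot be assigned to 1 of these genes.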
